A study of Mus musculus with 4 samples.

Results

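Collagen chains are the genes described here: 28 of the 13653 genes tested. They were chosen by name, with earlier results of these data known. RefSeq accessions of the array's probes were turned into gene symbols, symbols of the form Col followed by a number were taken, and a gene was kept if the scanner software put a probe of it well above background on any of the 4 arrays. Of the 44 such genes in the RefSeq table, 43 had a named probe, and 15 of these were not well above background on any array. Col12a1 had no named probe and was not analysed here. All 28 genes kept encode collagen chains.

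RNA came from heart muscle cells isolated from male mice 10 weeks of age. The mice were bred from a line with Cre driven by the αMHC promoter, which is active in heart muscle cells, and a line with the OSKM reprogramming factors (Pou5f1, Sox2, Klf4 and Myc) under tetO control. Control mice received PBS for 2 days (2 arrays) and treated mice received doxycycline by intraperitoneal injection for 2 days (2 arrays). Every array came from mice of this cross, so drug and factors cannot be told apart. The labels do not say whether an array held 1 animal or a pool, nor that the arrays of a group came from separate animals. The p-values therefore reflect only how much these samples vary, and that variation may be technical.

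Each sample was hybridised to a 1-colour Agilent array. A level is the log2 processed signal minus the log2 of that array's 75th percentile, so 0 is the 75th percentile, and a difference is doxycycline minus control. Between 50.6% and 51.8% of spots were well above background on each array. Control array 1 stood apart: the median coefficient of variation among replicate spots was 10.99% there, against 4.02% to 4.81% on the others. Among spike-in spots it was 18.3%, against 2.94% to 6.73%. Control array 1 alone fell outside the scanner software's accepted range for replicate spots. Its levels were above those of control array 2 for 23 of the 28 collagen chains, against 48.3% of all genes. Chain and list results are therefore also given without it. Among the introduced factors, the Myc probe had a processed signal of 22.2 on control array 1, 18.5 on control array 2, 844 on doxycycline array 1 and 138 on doxycycline array 2. The Klf4 probe was brighter than the Myc probe on every array. Its processed signal was 1776 on control array 1 and 1318 on control array 2. Doxycycline array 1 gave 2272 and doxycycline array 2 gave 1738. As log2 levels, Klf4 stood at 3.98, 2.95, 3.19 and 3.17 in that order of arrays. Pou5f1 was well above background on doxycycline array 1 alone, and Sox2 on none.

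Collagens are secreted proteins of 3 chains wound into a helix, and their class sets the structure they build. Fibrillar collagens form the tensile fibres of the heart's interstitium, type VI forms fine beaded filaments beside cells, and type IV forms the sheet-like basement membrane that surrounds each heart muscle cell and each capillary. FACIT collagens sit on the surface of fibrils, and the network collagens VIII and X form hexagonal lattices. Fibroblasts are known as the main source of fibrillar chains in the heart, and endothelial cells and pericytes of type IV. All 10 cardiomyocyte markers, with Myh6 at 9.17 to 10.28, were well above background on every array. So were all 17 fibroblast and all 14 endothelial markers.

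Fibrillar and type VI chains read far lower after doxycycline, whereas the major type IV chains Col4a1 and Col4a2 did not. The median difference was -2.43 over the 8 fibrillar chains, -2.56 over the 3 beaded filament chains of type VI, 0.07 over the 5 basement membrane chains and -0.16 over the 5 FACIT chains, against -0.08 over all genes tested. Both doxycycline arrays lay below both control arrays for 7 of 8 fibrillar, 3 of 3 type VI, 2 of 5 basement membrane and 2 of 5 FACIT chains, where 22.3% of all genes did so. No collagen chain passed the test over all genes (limma with Benjamini-Hochberg adjustment, threshold 0.05). That test called 0 of 13653 genes (0.0%), and the adjusted p of the 28 chains ran from 0.449 to 0.995. At an unadjusted p under 0.05 there were 12 collagen chains, all lower, among them 6 fibrillar and 3 type VI chains. Of all genes, 4.17% were lower and 2.67% higher at that level. By sign alone, 23 chains lay below 0 and 5 above, against 56.0% and 44.0% of all genes, and without control array 1 it was 22 and 6, against 58.5% and 41.5%. A difference of at least 2-fold was found for 17 chains that read lower, against 10.4% of all genes, and for 1 that read higher (Col4a1), against 5.72%. Both doxycycline arrays lay below control array 2 for 19 chains, against 44.5%.

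These counts cover chains that passed a filter on dim probes, and a chain seen on control arrays alone could pass only by being low after doxycycline. Requiring all 4 arrays, which leaves out chains lost from detection after doxycycline, kept 17. Among them both doxycycline arrays lay below both controls for 11 and above both for 1. The shares over all 13653 genes, under the looser filter, were 22.3% and 14.0%. Shares over genes passing the stricter filter were not computed. The median difference was -2.49 over 5 fibrillar and -2.53 over 2 type VI chains. With no filter on dim probes, the median was -1.89 over all 11 fibrillar chains on the array and -1.80 over all 6 type VI chains. The median over all genes was then -0.31. Leaving out control array 1 gave medians of -1.60 for the 8 fibrillar, -1.78 for the 3 type VI, -0.25 for the basement membrane and -0.73 for the FACIT chains, against -0.11 over all genes.

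**Figure D1:**
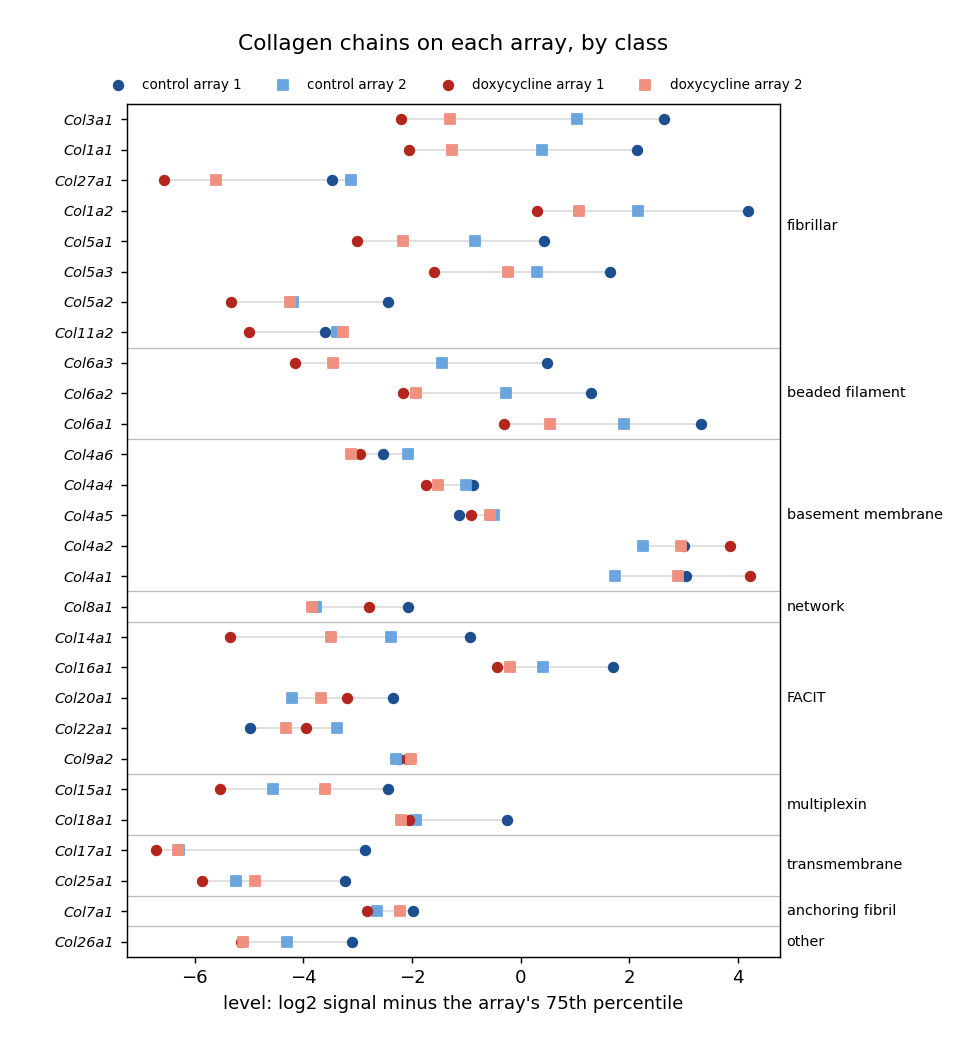
Level of each of the 28 collagen chains on each array (log2 signal minus the array's 75th percentile), grouped by class; a grey line joins the 4 arrays of a chain. Levels of different genes come from different probes and are not comparable. For 7 of 8 fibrillar and 3 of 3 beaded filament chains both doxycycline arrays (red) lie below both control arrays (blue).

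Type I collagen, the bulk of the heart's tensile fibre, is made of chains from Col1a1 and Col1a2. Col1a1 read 2.14 and 0.38 in control and -2.06 and -1.27 after doxycycline. Its groups did not overlap, and the difference was -2.93 ± 0.69 (SE, n = 2 per group; 7.61-fold lower, limma adjusted p = 0.515). Col1a2 read 4.19 and 2.16 in control and 0.31 and 1.07 after doxycycline, a difference of -2.49 ± 0.75 (5.60-fold lower, adjusted p = 0.590). In both genes control array 1 was the highest of the 4 arrays and doxycycline array 1 the lowest. Against control array 2 alone, the differences were -2.05 and -1.47.

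Col3a1, whose product forms the thinner, more compliant fibres that mix with type I, had the largest difference among the 28 chains. It read 2.63 and 1.04 in control and -2.21 and -1.30 after doxycycline, with processed signals of 695 and 352 against 53.6 and 78.2. The difference was -3.59 ± 0.67 (12.1-fold lower, adjusted p = 0.462). Against control array 2 alone it was -2.80, a 6.96-fold lower level. With each array left out in turn, 1 collagen chain passed in 1 fit: Col3a1 without doxycycline array 2 (-4.05, adjusted p = 0.0496, where 0.447% of all genes passed). Over the settings run its adjusted p lay between 0.0339 and 0.623. Median scaling called 0.125% and normexp background correction 0.0439% of all genes, and neither called a collagen chain.

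Type V collagen is the minor partner that starts type I fibrils and limits their width, and its chains are Col5a1, Col5a2 and Col5a3. Col5a1 read 0.43 and -0.85 in control and -3.01 and -2.16 after doxycycline, a difference of -2.37 ± 0.60 (5.19-fold lower, adjusted p = 0.515). Col5a3 read 1.65 and 0.30 in control and -1.59 and -0.23 after doxycycline, a difference of -1.89 ± 0.69 (adjusted p = 0.692). In neither gene did the groups overlap, and without control array 1 the differences were -1.73 and -1.21. Col5a2 was much dimmer. It was well above background on control array 1 alone and, against the detection limit, 1.88-fold lower after doxycycline. Its readings were -2.45, -4.19, -5.33 and -4.25 on control arrays 1 and 2 and doxycycline arrays 1 and 2. For a fold of this kind each doxycycline array counts at the probe's level or at its lowest level well above background, whichever is higher. Control arrays count at their own level, also where not well above background, so the fold is not a strict lower limit. Because doxycycline array 2 lay close to control array 2, the Col5a2 difference of -1.47 became -0.60 without control array 1.

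The remaining fibrillar chains were near the edge of detection. Col27a1, a fibrillar collagen best known from cartilage, had the smallest p of the 28 chains (adjusted p = 0.449). It read -3.47 and -3.12 in control and -6.56 and -5.60 after doxycycline, but it was well above background on control array 2 alone, where its processed signal was 19.6. The level after doxycycline was 1.91-fold lower against the detection limit, and the difference without control array 1 was -2.96. With normexp background correction, which pulls dim values together, the Col27a1 difference was -0.77 in place of -2.79. Col11a2, a chain of the minor cartilage fibril collagen XI, was the 1 fibrillar chain whose groups overlapped, with -3.61 and -3.38 in control and -4.995 and -3.28 after doxycycline. Its difference was -0.65 ± 0.64, and -0.76 without control array 1. Col2a1, Col11a1 and Col24a1 were not well above background on any array.

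The 5 fibrillar chains well above background on every array thus kept 1 order of arrays: control 1, control 2, doxycycline 2, doxycycline 1. Their differences ran from -3.59 (Col3a1) to -1.89 (Col5a3). On quantile normalization, median scaling or normexp correction, all 8 fibrillar chains stayed below 0. Scaling to the median moved the median of all genes by 0.35, and the fibrillar median relative to all genes was -2.35 with either scaling, -2.25 with quantile normalization and -1.18 with normexp.

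Upstream sequence is shown for Col1a2 and Col3a1 because these chains had like patterns over the arrays. It was taken from RefSeq's promoter windows (GRCm38.p6), cut to the 250 bases before the start site, in which 23 of the 28 members matched (25 windows). Col1a1 was not among them. Capitals mark 3 runs of letters that were searched on both strands. CCAAT is the box bound by the factor NF-Y. TATAAA is a form of the TATA box. GGGCGG is the core of the GC box. The Col1a2 sequence is chr6:4505368-4505617 on the plus strand, and the Col3a1 sequence is chr1:45311288-45311537 on the plus strand.
Col1a2: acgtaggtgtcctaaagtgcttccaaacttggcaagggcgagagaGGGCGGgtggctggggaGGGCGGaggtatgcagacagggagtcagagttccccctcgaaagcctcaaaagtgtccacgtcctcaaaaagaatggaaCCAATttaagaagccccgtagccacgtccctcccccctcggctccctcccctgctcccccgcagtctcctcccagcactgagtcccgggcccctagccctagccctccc
Col3a1: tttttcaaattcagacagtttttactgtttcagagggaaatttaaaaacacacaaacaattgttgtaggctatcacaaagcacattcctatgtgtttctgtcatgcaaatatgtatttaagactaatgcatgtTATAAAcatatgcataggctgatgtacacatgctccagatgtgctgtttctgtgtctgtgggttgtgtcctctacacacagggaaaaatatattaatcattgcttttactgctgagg
Col1a2 held CCAAT and GGGCGG and no TATAAA, and Col3a1 held TATAAA alone. Among the 25 windows of collagen genes 40% held CCAAT, 12% TATAAA and 64% GGGCGG. Among all 32851 windows of the table the shares were 33.9%, 12.4% and 32.7%. A match is a run of letters and does not show that a factor binds there.

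Type VI collagen is built from 1 chain each of Col6a1, Col6a2 and Col6a3 and anchors cells to the interstitial matrix. Its 3 chains had differences as large as the fibrillar ones. Col6a1 read 3.32 and 1.90 in control and -0.30 and 0.54 after doxycycline, a difference of -2.49 ± 0.63 (5.62-fold lower, adjusted p = 0.515). Col6a2 read 1.30 and -0.27 in control and -2.17 and -1.92 after doxycycline, a difference of -2.56 ± 0.61 (5.90-fold lower, adjusted p = 0.515). Col6a3 read 0.48 and -1.44 in control and -4.15 and -3.45 after doxycycline, a difference of -3.32 ± 0.72 (9.96-fold lower, adjusted p = 0.495), and it was not well above background on doxycycline array 1. The groups of all 3 chains were apart, and the order of the arrays was that of the fibrillar chains. Leaving out control array 1 gave -1.78, -1.78 and -2.36. Col6a1 and Col6a2 are neighbours on their chromosome. The other chains of this class, Col6a4, Col6a5 and Col6a6, were not well above background on any array.

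**Figure D2:**
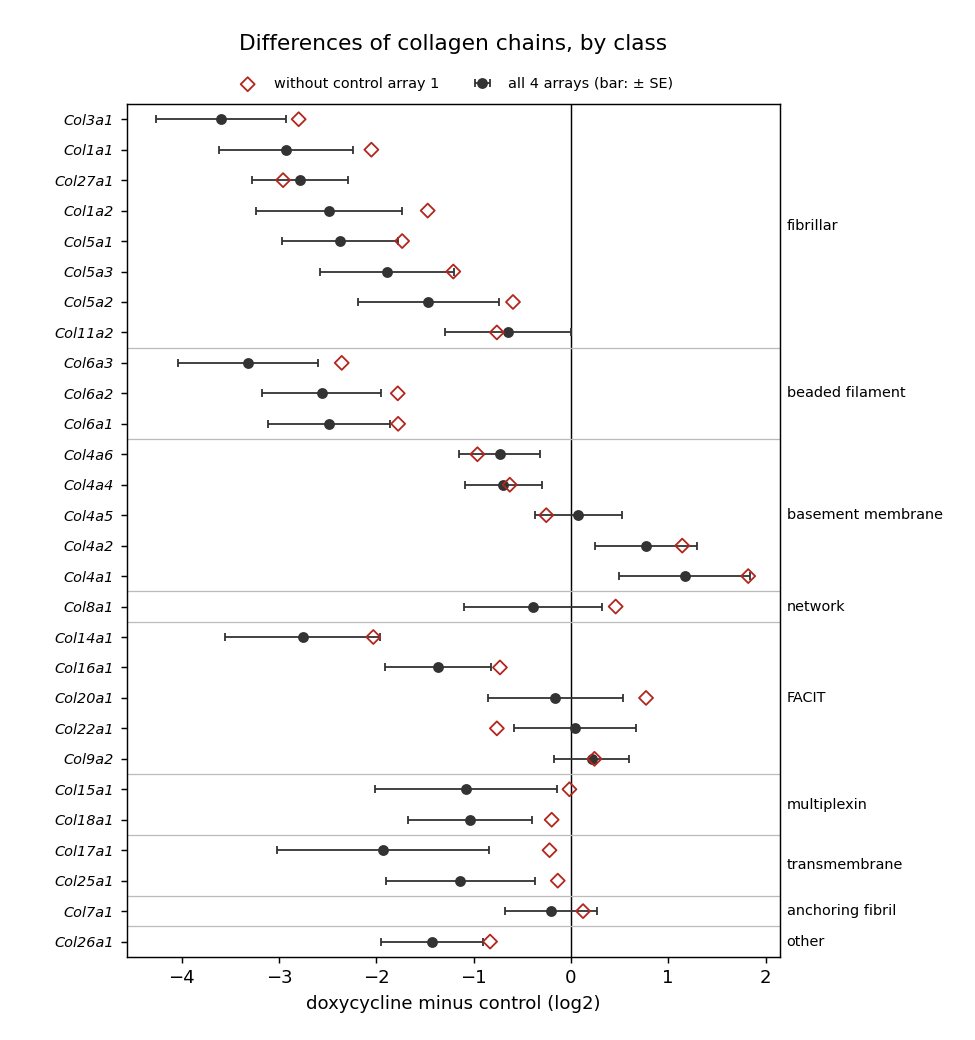
Difference of each collagen chain, doxycycline minus control (log2), with the standard error of the limma fit over 4 arrays (black) and the difference without control array 1 (red diamonds). Fibrillar and beaded filament chains lie left of 0 in both, and Col4a1 and Col4a2 lie right of 0 in both.

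In the basement membrane class the chains divided. Col4a1 and Col4a2 together make the α1α1α2 form of type IV collagen that every basement membrane holds. Col4a1 read 3.05 and 1.74 in control and 4.23 and 2.90 after doxycycline, a difference of 1.17 ± 0.67 (2.25-fold higher, adjusted p = 0.814). Col4a2 read 2.998 and 2.26 in control and 3.85 and 2.95 after doxycycline, a difference of 0.77 ± 0.52 (1.71-fold higher, adjusted p = 0.850). In both genes doxycycline array 1 was the highest, doxycycline array 2 lay just below control array 1, and control array 2 was the lowest, so the groups overlapped. Against control array 2 alone the differences were 1.82 and 1.14, and both doxycycline arrays lay above it. Across all genes, 27.8% had both doxycycline arrays above control array 2. The differences of Col4a1 and Col4a2 were above 0 under each of 4 scalings, at 1.03 to 1.52 and 0.65 to 1.12.

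Col4a1, on the minus strand, and Col4a2, on the plus strand, start beside each other, at bases 11312826 and 11312805. Their first bases therefore overlap before the genes run apart. Their promoter windows in RefSeq (GRCm38.p6) share 78 bases. A stretch of 30 bases around a CCAAT before the Col4a2 start site is chr8:11312761-11312790 on the plus strand. It is shown because CCAAT, in capitals, begins 32 bases before that start site. The Col4a1 start site lies beyond that of Col4a2 on the plus strand. The stretch is therefore downstream of the Col4a1 start, and it is not wholly inside the Col4a1 promoter window.
Col4a2: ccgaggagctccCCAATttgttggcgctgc
CCAAT was also present in the Col1a2 sequence above. In all, 3 of 5 basement membrane windows and 2 of 6 fibrillar windows held it, against 33.9% of all windows. Its bearing on the readings was not tested.

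The minor type IV chains did not share the pattern of Col4a1 and Col4a2. Col4a4 belongs to the α3α4α5 form best known from the kidney, while Col4a5 and Col4a6 pair in the α5α5α6 form of smooth muscle. Col4a6 read -2.53 and -2.08 in control and -2.95 and -3.12 after doxycycline, a difference of -0.73 ± 0.41 (adjusted p = 0.813). Col4a4 read -0.88 and -1.01 in control and -1.75 and -1.52 after doxycycline, a difference of -0.69 ± 0.40 (adjusted p = 0.813). Neither overlapped between groups, and both stayed below 0 under each of the 4 scalings and without control array 1 (-0.96 and -0.63). Col4a5 differed by 0.07 ± 0.45 with overlapping groups, and by -0.25 without control array 1. Col4a3, the remaining chain, was not detected above background. The class median near 0 is thus made of chains on either side of it.

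Network collagens had 1 chain above background. Col8a1, a short chain of the lattice made by vascular cells, read -2.08 and -3.78 in control and -2.79 and -3.84 after doxycycline. Each array 1 was higher than its array 2, and the groups overlapped. The difference was -0.39 ± 0.71 (adjusted p = 0.961) and became 0.46 without control array 1. Col8a2 and Col10a1 were not well above background on any array, so this class rests on a single gene.

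Among FACIT chains, which coat fibrils, the members split by gene. Col14a1, which regulates fibril growth, read -0.94 and -2.39 in control and -5.35 and -3.50 after doxycycline, a difference of -2.76 ± 0.80 (6.77-fold lower, adjusted p = 0.564). It was not well above background on doxycycline array 1. Col16a1, an adaptor between fibrils and other matrix, read 1.69 and 0.42 in control and -0.43 and -0.19 after doxycycline, a difference of -1.37 ± 0.55 (adjusted p = 0.728). Both genes had groups that did not overlap, and without control array 1 they differed by -2.03 and -0.73. Normexp correction brought the Col14a1 difference to -1.08.

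Col9a2, a chain of the cartilage collagen IX, was nearly level. It read -2.24 and -2.30 in control and -2.10 and -2.02 after doxycycline, a difference of 0.21 ± 0.39 that was 0.24 without control array 1 and -0.21 with normexp. This was the 1 collagen chain with both doxycycline arrays above both controls, where 14.0% of all genes were. Col20a1 read -2.35 and -4.21 in control and -3.20 and -3.67 after doxycycline, and Col22a1, a collagen of tissue junctions such as that of muscle and tendon, had a difference of 0.04 ± 0.62, and -0.76 without control array 1. Both genes overlapped between groups. The Col20a1 difference of -0.16 was above 0 under median scaling (0.19), under quantile normalization (0.073) and without control array 1 (0.77). Col9a1, Col9a3 and Col19a1 were not well above background on any array.

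The multiplexins Col15a1 and Col18a1 lie at basement membranes, and Col18a1 yields the fragment endostatin. Control array 1 was the highest of the 4 arrays for both. Col18a1 read -0.25 on control array 1, -1.93 on control array 2 and -2.05 and -2.21 after doxycycline, so its difference of -1.04 ± 0.63 became -0.20 without control array 1. Col15a1 was well above background on control array 1 alone and, against the detection limit, 1.44-fold lower after doxycycline. It read -2.43 and -4.55 in control and -5.53 and -3.60 after doxycycline, and its difference of -1.07 ± 0.94 became -0.02 without control array 1 and -0.11 without doxycycline array 1.

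The transmembrane collagens Col17a1, a hemidesmosome protein, and Col25a1, made mainly by neurons, and the secreted Col26a1 were likewise well above background on control array 1 alone. Col17a1 read -2.86 and -6.28 in control and -6.70 and -6.30 after doxycycline, so control array 1 stood alone. Col25a1 read -3.24 and -5.25 in control and -5.87 and -4.89 after doxycycline, with overlapping groups. Against the detection limit neither gene gave a fold. Col26a1 read -3.11 and -4.30 in control and -5.15 and -5.10 after doxycycline, 1.44-fold lower against that limit. The differences of -1.93, -1.14 and -1.43 for these 3 genes became -0.22, -0.14 and -0.83 without control array 1. Col7a1, which forms anchoring fibrils under epithelia, was above background on all arrays. It read -1.99 and -2.65 in control and -2.82 and -2.22 after doxycycline, with overlapping groups and a difference of -0.20 ± 0.47. It stood at 0.12 without control array 1, and with median scaling at 0.14.

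At the edge of the detection rule the signals of members and non-members met. The 6 chains well above background on 1 array alone were Col5a2, Col15a1, Col17a1, Col25a1, Col26a1 and Col27a1. Among the 15 chains outside it, the highest processed signals were 15.4 for Col9a1, 11.96 for Col23a1 and 11.1 for Col13a1, against 11.9 on control array 1 for Col25a1, which was inside.

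Several members had more than 1 probe, 8 in all, and the brightest stood for the gene. A second probe of Col18a1 gave -1.12 against -1.04, one of Col16a1 gave -1.14 against -1.37, and one of Col4a6 gave -1.66 against -0.73. The other Col14a1 probe, well above background in control only, gave -1.31 against -2.76. For Col15a1 the other probes gave -1.83 and -2.02 against -1.07, and for Col20a1 the other probe gave -0.68 against -0.16. Among probes above background on any array, none of these pairs had opposite signs, and the size differed most for Col14a1.

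Markers of fibroblasts that are not collagens had a smaller median difference than the fibrillar chains, a contrast between lists that was not tested. Over 17 fibroblast markers the median difference was -0.44, with both doxycycline arrays below both controls for 6 and above both for 0, against 22.3% and 14.0% of all genes. The platelet-derived growth factor receptor gene Pdgfra, which defines the cell type, read 0.16 and -1.50 in control and -1.15 and -0.85 after doxycycline, a difference of -0.33 ± 0.63 (adjusted p = 0.961). The transcription factor gene Tcf21 differed by -0.44 ± 0.50 (adjusted p = 0.916). Both genes were well above background on every array, and their groups overlapped. Leaving out control array 1 gave a marker median of 0.02, with Pdgfra at 0.50 and Tcf21 at 0.02. The summed marker level, in multiples of each array's 75th percentile, was 506 and 191 in control and 229 and 239 after doxycycline. Such a sum is weighted toward the brightest probes of a list. In a bulk sample fewer cells of a type and less RNA per cell cannot be told apart. The markers at an unadjusted p under 0.05 were 5 lower and 0 higher, against 4.17% and 2.67% of all genes. Named after their values were seen, they were the matrix genes Lum (-3.76), Dpt (-2.13), Fbln1 (-1.85) and Pcolce (-1.84) and the secreted Islr (-2.66). Leaving out control array 1 gave -2.92 for Lum, -1.31 for Dpt, -1.24 for Fbln1, -1.32 for Pcolce and -1.99 for Islr. Over all 17 markers, 8 then lay below 0 and 9 above, against 58.5% and 41.5% of all genes.

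**Figure D3:**
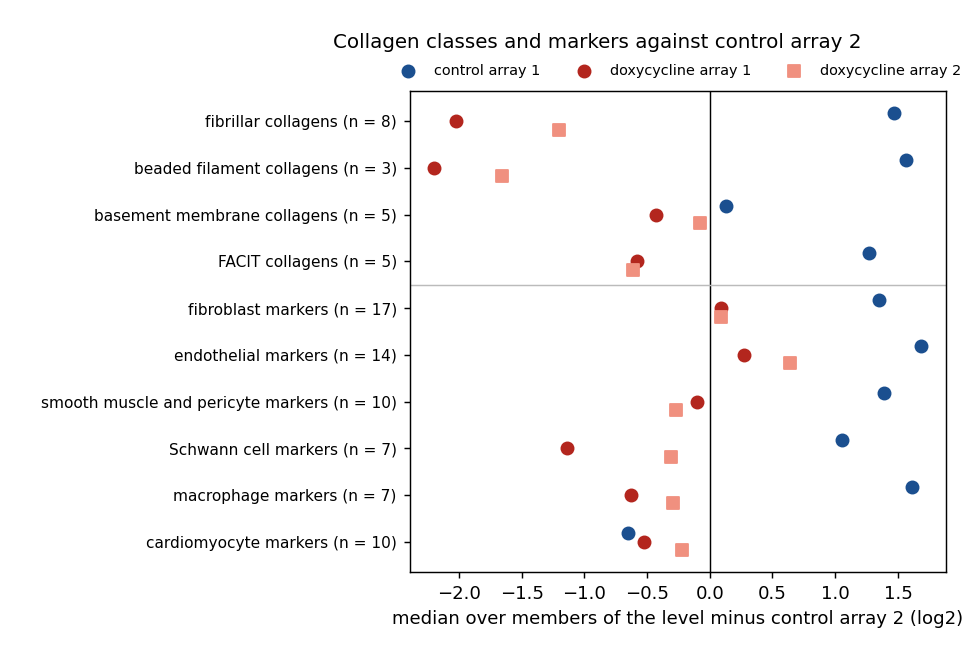
Median over the members of each list of the level minus that of control array 2 (log2), for control array 1 and both doxycycline arrays. The fibrillar chains stand at -2.02 and -1.20 on the doxycycline arrays and the fibroblast markers at 0.09 on both, while control array 1 lies above control array 2 for both lists (1.47 and 1.35).

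Other cell types that make collagen were measured in the same way. Endothelial markers had a median difference of -0.18 over 14 genes, and 0.49 without control array 1, with Pecam1 at 0.48 ± 0.65 (1.36 without that array) and Cdh5 at -0.30 ± 0.56 (0.38). Their summed level was 742 and 252 in control and 299 and 351 after doxycycline. Smooth muscle and pericyte markers had a median of -0.79 over 10 genes, and -0.09 without control array 1, with Myh11 at 0.34 (1.21 without that array) and Rgs5 at -0.51 (0.065). These sums, weighted toward bright probes such as that of Acta2, were 85.2 and 68.8 in control and 35.0 and 27.3 after doxycycline. Schwann cell markers had a median of -0.95 over 7 genes and -0.58 without control array 1, with sums of 4.62 and 2.84 against 1.62 and 2.46. Mesothelial markers had a median of -0.17 over 6 genes (Wt1 0.11, and 0.54 without control array 1), macrophage markers of -1.15 over 7 genes (Csf1r -1.43, and -0.76 without it) and valve and cartilage markers of -1.44 over 5 genes. Leaving out control array 1 gave medians for these last 3 lists of -0.46, -0.42 and -0.95. Their sums were 4.60 and 5.15, 22.3 and 8.09, and 6.67 and 2.15 in control, and 5.11 and 5.81, 5.99 and 6.77, and 1.496 and 4.48 after doxycycline. Cardiomyocyte markers had a median of -0.01 over 10 genes, and -0.34 without control array 1, with Myh6 at -0.51 ± 0.46 (-0.23 without it) and sums of 4932 and 5714 against 3738 and 4561. The part of these cell types in the collagen values was not tested.

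A procollagen chain is hydroxylated and glycosylated in the endoplasmic reticulum, folded with chaperones, trimmed outside the cell and cross-linked. No gene of these lists passed the test over all genes, and the list medians ran from -0.69 to -0.04. Of 12 hydroxylases and glycosyltransferases, both doxycycline arrays lay below both controls for 3 and above for 0 (22.3% and 14.0% of all genes), and the median difference was -0.14, or -0.08 without control array 1. P4ha1, a catalytic subunit of prolyl 4-hydroxylase, differed by -1.21 ± 0.63, and Colgalt2, which adds galactose to hydroxylysine, by -1.497 ± 0.67. They stood at -0.96 and -0.70 without control array 1. The third, named after its value was seen, was the prolyl 3-hydroxylase family gene P3h3 (-1.13, and -0.22 without that array).

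Chaperone and export genes went both ways, with both doxycycline arrays below both controls for 5 of 16 and above for 5 of 16. The shares over all genes were 22.3% and 14.0%. The list median was -0.04, or -0.33 without control array 1. Named after their values were seen, the 5 below were Serpinh1, Crtap (-0.75), Ppib (-0.57), Sec24d (-0.52) and Creb3l1 (-1.03). The 5 above were Fkbp10, Tmem38b, Fkbp14 (1.47), P3h4 (0.87) and Mia3 (0.26). Leaving out control array 1 gave -0.60 for Crtap, -0.34 for Ppib, -0.72 for Sec24d, -0.32 for Creb3l1, 1.59 for Fkbp14, 0.59 for P3h4 and 0.13 for Mia3. Serpinh1, the collagen-specific chaperone HSP47, read 2.84 and 2.45 in control and 1.49 and 1.43 after doxycycline, a difference of -1.18 ± 0.41 (2.27-fold lower, adjusted p = 0.664) that was -0.99 without control array 1. Fkbp10, a prolyl isomerase that assists type I procollagen, read 2.47 and 2.10 in control and 3.96 and 3.33 after doxycycline, a difference of 1.36 ± 0.45 (2.57-fold higher, adjusted p = 0.643) that was 1.55 without control array 1. Tmem38b, a potassium channel of the endoplasmic reticulum, was well above background after doxycycline only, where its level was at least 3.03-fold that of control (adjusted p = 0.523).

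Extracellular steps likewise differed by gene. Pcolce, an enhancer of the proteinase that trims fibrillar procollagens, read 5.15 and 4.11 in control and 2.81 and 2.77 after doxycycline, a difference of -1.84 ± 0.49 (3.58-fold lower, adjusted p = 0.537), and -1.32 without control array 1. Pcolce2 differed by -0.89 ± 0.42, and by -0.62 without that array. Both were below both controls, as was the proteinase gene Tll1 (-0.74, and -0.64 without control array 1), named after its value was seen, among the 6 proteinase and enhancer genes tested, where 22.3% of all genes were. Among the 6 cross-linking enzymes, Lox and Tgm2 were above both controls and Loxl2 (-0.91), also named after its value was seen, was below, against 14.0% and 22.3% of all genes. The Loxl2 difference was -0.08 without control array 1. Lysyl oxidase, Lox, which starts cross-links between fibrillar chains, was well above background on doxycycline array 1 alone. Against the detection limit its group level was 1.30-fold that of control (adjusted p = 0.590). The transglutaminase gene Tgm2 read 4.60 and 4.29 in control and 6.50 and 5.36 after doxycycline, a difference of 1.48 ± 0.52 (2.80-fold higher, adjusted p = 0.670) that was 1.64 without control array 1. Of 7 receptor and uptake genes tested, 3 were below both controls (22.3% of all genes). They were Itga11, Mrc2 and the leukocyte receptor gene Lair1 (-0.63, and -0.14 without control array 1), named after its value was seen. Itga11, the integrin chain that binds fibrillar collagen on fibroblasts, differed by -3.14 ± 1.04 (-2.28 without control array 1). It read -5.97 and -3.20 after doxycycline. Mrc2, an endocytic collagen receptor, differed by -1.23 ± 0.51 (-0.86 without control array 1). Itga11 and Mrc2 were not well above background on doxycycline array 1, nor was Lair1 on doxycycline array 2. The median difference was -0.69 over the proteinases and enhancers, -0.36 over the cross-linking enzymes and -0.63 over the receptors, and -0.31, 0.01 and -0.17 without control array 1.

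**Figure D4:**
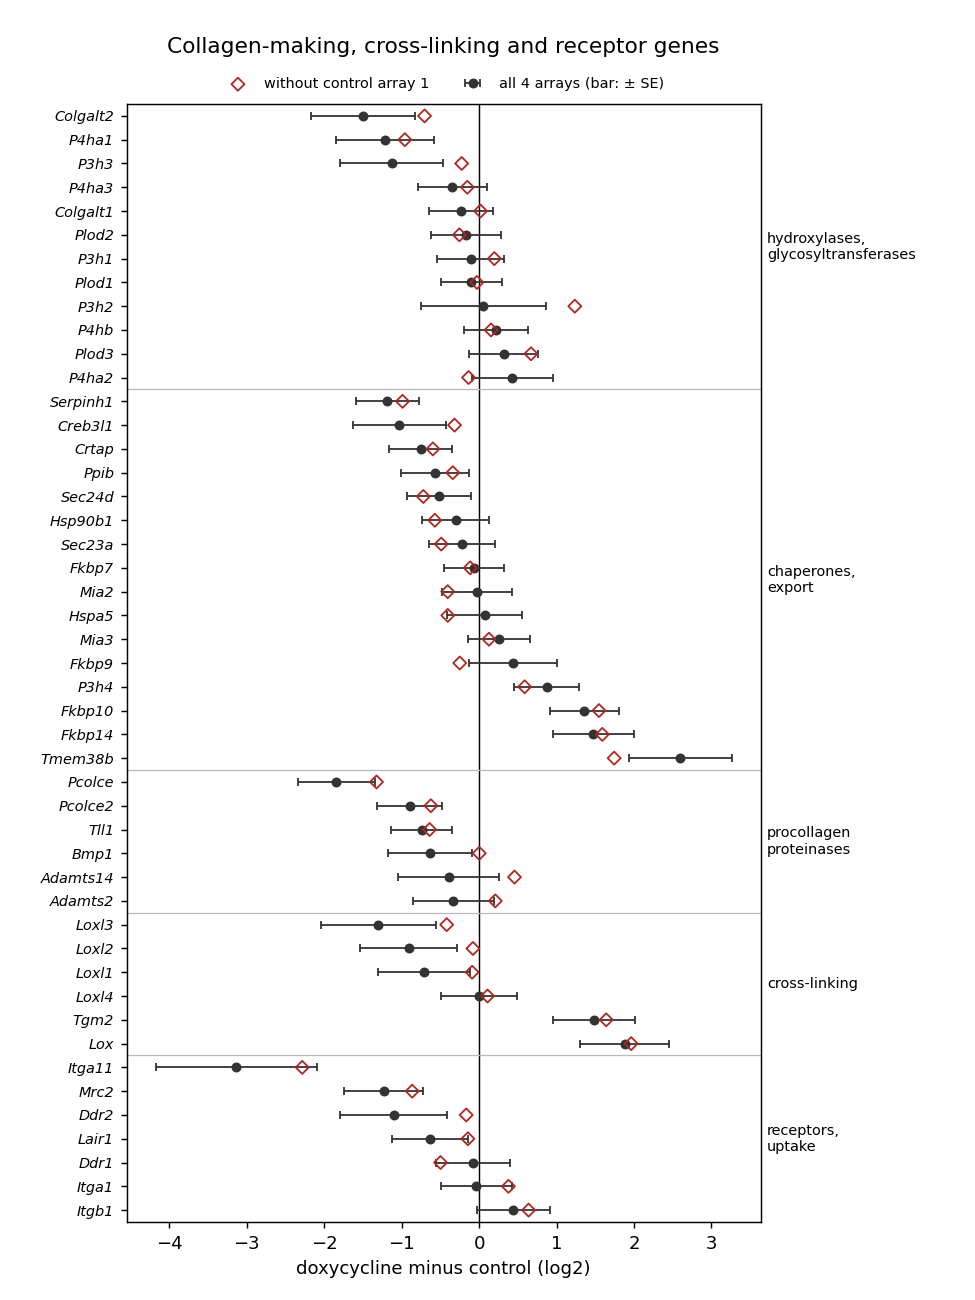
Difference, doxycycline minus control (log2), of 47 genes that modify, fold, trim, cross-link or bind collagen, with the standard error of the limma fit (black) and the difference without control array 1 (red diamonds). Serpinh1, Pcolce and Itga11 lie left of 0 and Fkbp10, Tmem38b, Lox and Tgm2 right of 0, with and without that array.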

How the data were processed

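The 4 scanner files hold spot intensity extracted by the authors with Agilent Feature Extraction 10.7.1.1 from 1-colour Cy3 scans, per the file headers. Processed intensity, as the authors deposited it, had been corrected for background and spatial trend within each array and not normalized between arrays, per the file headers. The other columns used, 0 or 1 flags for outlying, saturated or well-above-background spots, are as deposited. No non-control spot was saturated. Arrays were grouped by sample title. All 4 lay on 1 slide, controls in positions 1 and 2 and doxycycline in 3 and 4, so position and treatment cannot be told apart. Columns of other series numbered 0.

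Probes were named through unversioned RefSeq accessions (GRCm38.p6, names only): 27502 of 39429 probes, for 20882 genes. Levels were log2 processed intensity minus each array's 75th percentile; outlier spots were left out, spots averaged, and the brightest probe well above background on at least 1 array stood for a gene. Differences were tested with limma 3.58.1 (lmFit, eBayes; 3.67 prior and 2 residual degrees of freedom) in R 4.3.3, two-sided, Benjamini-Hochberg over 13653 genes. A permutation test of 2 against 2 cannot go below p = 0.333. The number of arrays and signal over background limit the precision. The members, classes and lists were chosen with earlier results of these data known. Values per array are given for the 4 chains with the smallest p in each class, the chains of types I, III and IV (Col4a1, Col4a2), and chains seen in 1 group only; others are described for completeness. From each pathway list come the 2 genes with the smallest p, plus Serpinh1, P4ha1, Lox and Pcolce. Alternatives were median scaling, quantile normalization, normexp (offset 50, on median spot intensity), other filters, the mean of probes, a variance trend, the replicate number as a block, and each array left out.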

Additional observations from a re-analysis of the deposited data

How the results depend on the processing

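Fibrillar chains kept a median difference below 0 in each setting run. The all-gene count of 0 calls became 17 with median scaling, 6 with normexp, 47 with the replicate block and 934 at an unadjusted p under 0.05, and 0 to 61 with an array left out. For collagen chains it became 1 (Col3a1, adjusted p = 0.034) with the replicate block, 12 at an unadjusted p under 0.05, and 0 to 1 with an array left out. The replicate number is not stated to pair samples, and deviations of same-numbered arrays correlated at -0.07 over genes. Normexp gave medians of -1.33 for fibrillar, -0.45 for FACIT and -0.62 for all 28 chains. Median scaling gave 0.42 for basement membrane and 0.19 for FACIT chains, with a shift of 0.35 in all genes. The FACIT median was 0.073 with quantile normalization, -0.58 with chains above background on 4 arrays, -0.39 with no filter and -0.42 with the mean of probes. With no filter the median of all genes was -0.31. With an array left out, medians ran from -2.83 to -1.60 (fibrillar), -0.25 to 0.40 (basement membrane), -1.09 to 0.074 (FACIT), -1.23 to 0.46 (Col8a1, the network class) and -2.08 to -0.75 (all). Of the 28 chains, 7 changed sign in at least 1 setting. Col20a1 did so with median scaling (0.19) and quantile normalization (0.073), Col7a1 with median scaling (0.14), Col9a2 with normexp (-0.21) and Col22a1 with normexp (-0.45). With an array left out, differences ran from -1.09 to 0.77 for Col20a1, -0.53 to 0.12 for Col7a1, -0.76 to 0.85 for Col22a1, -0.25 to 0.40 for Col4a5, -1.504 to 0.21 for Col11a2 and, as above, for Col8a1. The cause was not tested.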
